A study of Oryza sativa Japonica Group with 4 samples.

Results

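The genes described here are those of rice whose names place them in 5 families of auxin action: IAA, ARF, SAUR, GH3 and PIN. A gene was taken when its symbol or a synonym, without a leading Os, was one of these family names followed by a number, and when the array carried a probe set annotated with that gene alone. This gave 57 of the 17905 genes with such a probe set, namely 26 IAA, 17 ARF, 9 GH3 and 4 PIN genes and 1 SAUR gene. Each gene is represented by its probe set with the highest mean log2 intensity over the 4 arrays. A further 9 genes that fit the name rule had no such probe set and are not analysed here.

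RNA came from roots of rice seedlings (Oryza sativa japonica, variety TNG67) that germinated in darkness for 3 days and then grew hydroponically without a nitrogen source for 2 weeks. At 17 days of age the seedlings spent 30 min either in fresh nitrogen-free solution (minus N, 2 arrays) or in solution with 2.5 mM glutamine (plus glutamine, 2 arrays). Both groups had therefore been starved of nitrogen, and they differed in the final 30 min. Each group held 2 biological repeats, numbered 1 and 2, and how many seedlings went into a repeat is not stated in the labels.

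Auxin (indole-3-acetic acid) is the hormone that patterns root growth, lateral root formation and gravitropism. Aux/IAA proteins, encoded by the IAA genes, bind and silence auxin response factors (ARFs), which are transcription factors on the promoters of auxin-regulated genes. Auxin causes the Aux/IAA proteins to be degraded and so frees the ARFs, and among the genes that then respond quickly are IAA, SAUR and GH3 genes themselves. GH3 enzymes join auxin or jasmonate to amino acids, which lowers or alters the pool of active hormone. PIN proteins carry auxin out of the cell or, for some members, into internal compartments.

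The tissue label was checked against marker genes. Of 9 measured root markers 5 were brighter than the median gene, and Lsi1, the silicon influx channel of rice roots, lay between 12.83 and 13.14 on the log2 scale in the 4 arrays. RCc3 and RCc2 were not matched by name. Of 5 green shoot markers 3 were brighter than the median gene, and the chlorophyll-binding protein gene CAB2R lay between 13.07 and 13.36. Over the green markers the median log2 intensity in replicate number 1 was 7.42 without nitrogen and 7.66 with glutamine, and in number 2 it was 8.03 and 8.13. This median was the value of 1 gene, PPDKB, in each array, and it followed the replicate number. The green markers rbcS, RBCS1 and PPDK2 were also higher in both arrays numbered 2. CAB2R did not follow the number: it was lowest in minus N replicate 1 and stood at 13.29 in both plus glutamine arrays. The median over the root markers was likewise the value of 1 gene, PIP2-5, in each array. It was lowest in minus N replicate 1 (6.96) and highest in minus N replicate 2 (7.63). The part of these marker differences in the results below was not tested. Of 8 seed storage markers 1 was brighter than the median gene. In bulk RNA of this kind, fewer cells of a type and less RNA per cell cannot be told apart.

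For most of the auxin genes the group means with and without glutamine were close, and the largest differences were those of GH3-8 and PIN5. Both genes were higher in the 2 plus glutamine arrays than in the 2 minus N arrays, by 0.80 and 1.02 on the log2 scale. Of the 57 genes, 47 differed by less than 0.25 log2 between the group means (82.5%, against 80.9% of all genes), 7 by 0.25 to 0.5, and 3 by 0.5 or more. The 3 were PIN5, GH3-8 and, in the other direction, the dim IAA14. The median difference over the 57 genes was 0.03, against -0.01 over all genes.

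No member passed the test across the array. Over all 57258 probe sets that were not array controls, limma with Benjamini-Hochberg adjustment called 0 (0% of probe sets), and the lowest adjusted p was 1. Without adjustment, p was below 0.05 for 505 probe sets (0.882%), for 1.59% of the genes, and for 2 of the 57 members (3.51%), GH3-8 and PIN5. A simpler count asked whether both plus glutamine arrays lay above, or both below, both minus N arrays. Among the members 5 genes were higher in this sense and 2 lower, or 8.77% and 3.51%. Among all 17905 genes the shares were 10.1% higher and 9.03% lower, so the members' counts were no larger than the background. With a difference of at least 0.5 log2 required as well, 2 members were higher and 0 lower, or 3.51% and 0%, against 2.84% and 0.491% of all genes.

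In the GH3 family 1 gene had groups that did not overlap and 8 had groups that overlapped. GH3-8, whose enzyme joins indole-3-acetic acid to amino acids, had log2 intensities of 8.60 and 8.24 in minus N replicates 1 and 2. With glutamine it stood at 9.18 and 9.27. The lower plus glutamine array thus exceeded the higher minus N array, and the group means differed 1.74-fold (log2 difference 0.80, SE 0.23, 95% interval 0.21 to 1.39, limma unadjusted p = 0.0166, adjusted p = 1). The difference was 0.57 within replicate number 1 and 1.03 within number 2. Of all genes, 1.47% had a difference at least as high.

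GH3-2, another enzyme gene of auxin conjugation, had a probe set of similar brightness and another pattern. It stood at 8.35 and 9.37 without nitrogen and at 8.38 and 8.69 with glutamine. The highest of the 4 values was minus N replicate 2, the other 3 arrays lay close together, and the difference of -0.32 (SE 0.38) was smaller than the gap between the minus N repeats. GH3-5, listed also as JAR1, encodes the enzyme that joins jasmonate to isoleucine and so belongs to jasmonate rather than auxin metabolism. Its values were 8.37 and 8.74 without nitrogen and 8.55 and 8.83 with glutamine, which overlap (difference 0.13, SE 0.25).

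The remaining GH3 genes overlapped between the groups as well. GH3-6 was at 8.22 and 8.15 without nitrogen and at 7.90 and 8.20 with glutamine, a difference of -0.14 (SE 0.22). GH3-7 was at 5.88 and 6.18, then 6.25 and 6.03, a difference of 0.11 (SE 0.23). GH3-4, GH3-9, GH3-11 and GH3-1 had dim probe sets, brighter than 17.5%, 15.5%, 11.7% and 5.84% of the genes' probe sets. Their differences were 0.19, 0.06, 0.17 and -0.29 at SEs between 0.24 and 0.35. The 95% intervals were -0.41 to 0.78 for GH3-4, -0.61 to 0.72 for GH3-9, -0.44 to 0.78 for GH3-11 and -1.18 to 0.60 for GH3-1. The estimate of 0.80 for GH3-8 lies above each of them. Its own interval (0.21 to 1.39) overlaps each, so the intervals do not separate these genes from GH3-8. The median difference over the 9 genes was 0.11, with 0.17 within number 1 and 0.04 within number 2.

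The 4 PIN genes had a similar make-up. PIN5, which the gene table lists also as PIN9, stood at 4.91 and 5.41 without nitrogen and at 5.89 and 6.48 with glutamine. In linear units these were 30.1 and 42.6 against 59.3 and 89.1. Each repeat with glutamine lay above both repeats without nitrogen, and the group means differed 2.03-fold (log2 difference 1.02, SE 0.31, 95% interval 0.23 to 1.81, limma unadjusted p = 0.0201, adjusted p = 1). The differences within the numbers were 0.98 and 1.06. Of all genes, 0.81% had a difference at least as high. The probe set was brighter than 28.4% of the genes' probe sets, and no detection call was used to say how far above background it lay.

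PIN2, known for its part in root gravitropism, went opposite ways in the numbers. It stood at 4.85 and 6.04 without nitrogen and at 5.55 and 5.44 with glutamine, so both plus glutamine arrays lay between the minus N repeats. The mean difference was 0.05 (SE 0.42, 95% interval -1.01 to 1.11), with 0.70 within number 1 and -0.60 within number 2. PIN6, named also PIN5a, had 4.77 and 5.61, then 4.59 and 5.26, and its number 2 arrays were the higher in both groups (difference -0.26, SE 0.39). PIN4, which the gene table lists also as PIN5b and PIN5c, lay between 2.41 and 2.68 in the 4 arrays. It was brighter than 1.92% of the genes' probe sets (difference -0.07, SE 0.22). SAUR39, reported in rice as a negative regulator of auxin synthesis and transport, stood at 7.29 and 7.37 without nitrogen and at 6.83 and 7.54 with glutamine, so the plus glutamine repeats enclosed both minus N values.

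**Figure D1:**
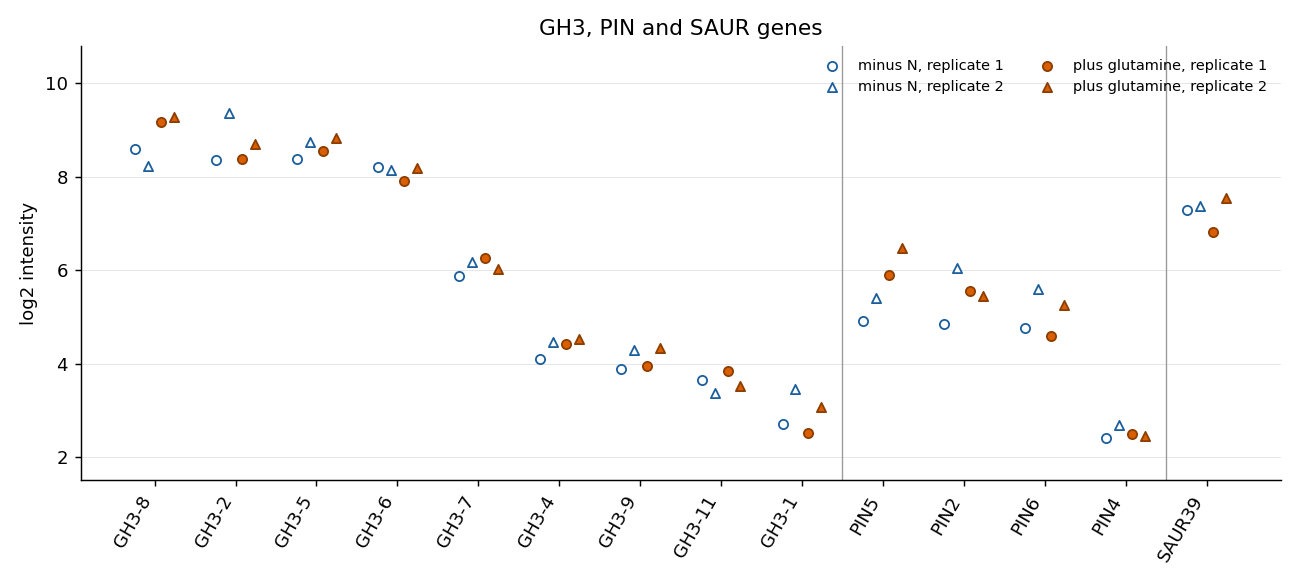
Log2 intensity of the GH3, PIN and SAUR genes in each array, ordered within a family by the mean over the 4 arrays; open blue symbols are minus N, filled orange symbols plus glutamine, circles replicate 1 and triangles replicate 2. GH3-8 and PIN5 have both filled symbols above both open ones, while the symbols of the other genes overlap.

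The IAA family held the brightest probe sets of the 57 genes, and for the 3 brightest the group means lay close together. IAA3 stood at 12.56 and 12.51 without nitrogen and at 12.57 and 12.44 with glutamine. IAA13, a repressor that acts in rice lateral root formation, had 12.13 and 12.75, then 12.32 and 12.30. IAA17 had 12.00 and 12.16, then 12.17 and 12.09. The differences of these 3 were -0.03 (95% interval -0.55 to 0.50), -0.13 (-0.83 to 0.57) and 0.05 (-0.48 to 0.58), and in each the groups overlapped. Their probe sets were brighter than 99.3%, 99.0% and 98.6% of the genes' probe sets, so they are not near the floor of the measurement. Brightness depends on the probes as well as on the RNA and is not used to rank amounts between genes.

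Only 4 of the 26 IAA genes had groups that did not overlap, 2 in each direction (7.69% each way, against 10.1% and 9.03% of all genes). IAA2 stood at 7.00 and 6.76 without nitrogen and at 7.29 and 7.09 with glutamine, a difference of 0.32 (SE 0.22). IAA23, which in rice maintains the quiescent centre of the root tip, had 8.11 and 8.32, then 8.44 and 8.45, a difference of 0.23 (SE 0.21). In the opposite direction IAA24 had 9.02 and 9.39, then 8.93 and 9.00 (difference -0.24, SE 0.23), and IAA26 had 4.65 and 4.69, then 4.05 and 4.49 (difference -0.40, SE 0.24). All 4 differences were smaller than 2 SE, and their unadjusted p-values in limma lay between 0.159 and 0.342, with an adjusted p of 1 for each.

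Over the 26 IAA genes the differences ran from -0.53 to 0.32 with a median of 0.02. The median was 0.11 within number 1 and -0.16 within number 2, and 14 of the genes had opposite signs in the numbers. IAA7 went furthest apart. Its values were 5.60 and 6.13 without nitrogen and 6.16 and 5.56 with glutamine, a difference of 0.55 within number 1 and -0.56 within number 2. A group of bright IAA genes, chosen after their values were seen, had minus N replicate 2 as the highest array. IAA30 stood at 10.26 and 11.11 without nitrogen and at 10.54 and 10.53 with glutamine. IAA31, the next gene to IAA30 in the RefSeq gene table, had 10.11 and 10.87, then 10.19 and 9.92. IAA12 had 9.80 and 10.48, then 10.28 and 9.93. In IAA12, IAA13, IAA30 and IAA31 the difference was positive within number 1 (0.48, 0.19, 0.28 and 0.08) and negative within number 2 (-0.55, -0.45, -0.58 and -0.95).

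The most negative mean difference of the 57 genes was that of IAA14, which had the same array as its highest and was also named, like IAA8 and IAA16, after its values were seen. IAA14 had linear intensities of 5.4 and 10.3 without nitrogen and 4.5 and 5.9 with glutamine, near the lowest value of the table (2.9). Its log2 difference was -0.53 (SE 0.37), with -0.26 within number 1 and -0.80 within number 2. IAA8 and IAA16 were as dim, with intensities from 4.3 to 7.1 and from 5.1 to 5.7. These 3 probe sets were brighter than 2.87%, 1.87% and 1.21% of the genes' probe sets, and no presence in the root is read from them.

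Most ARF genes differed little with glutamine. Of 17 genes, 16 differed by less than 0.25 log2 (94.1%, against 80.9% of all genes), and the differences ran from -0.23 to 0.31 with a median of 0.02. ARF23, named also OsARF1, had the brightest probe set of the family, at 10.08 and 10.66 without nitrogen and at 10.15 and 10.49 with glutamine. ARF9 had 9.19 and 9.77, then 9.22 and 9.80. ARF4 had 9.20 and 9.72, then 9.26 and 9.69. In all 3 the arrays numbered 2 lay above those numbered 1 in both groups, and the difference with glutamine was -0.05, 0.03 and 0.02 (SE 0.29, 0.33 and 0.29).

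ARF14 was the single ARF gene whose groups did not overlap. It stood at 6.87 and 6.93 without nitrogen and at 6.98 in both plus glutamine arrays, a difference of 0.08 (SE 0.20, 95% interval -0.43 to 0.60), or 1.06-fold. One non-overlapping gene in 17 is 5.88%, against 19.1% of all genes in either direction. ARF13, the dim gene of the family, went furthest apart between the numbers, with linear intensities of 10.6 and 6.3 without nitrogen and 6.8 and 7.1 with glutamine. ARF16, chosen after its values were seen and with a name that the gene table also gives as a synonym of ARF1, had 6.83 and 7.45, then 6.80 and 7.02 (difference -0.23, SE 0.29). Apart from ARF13, the ARF probe sets had means from 6.65 to 10.35 and were brighter than 39.7% to 91.6% of the genes' probe sets.

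**Figure D2:**
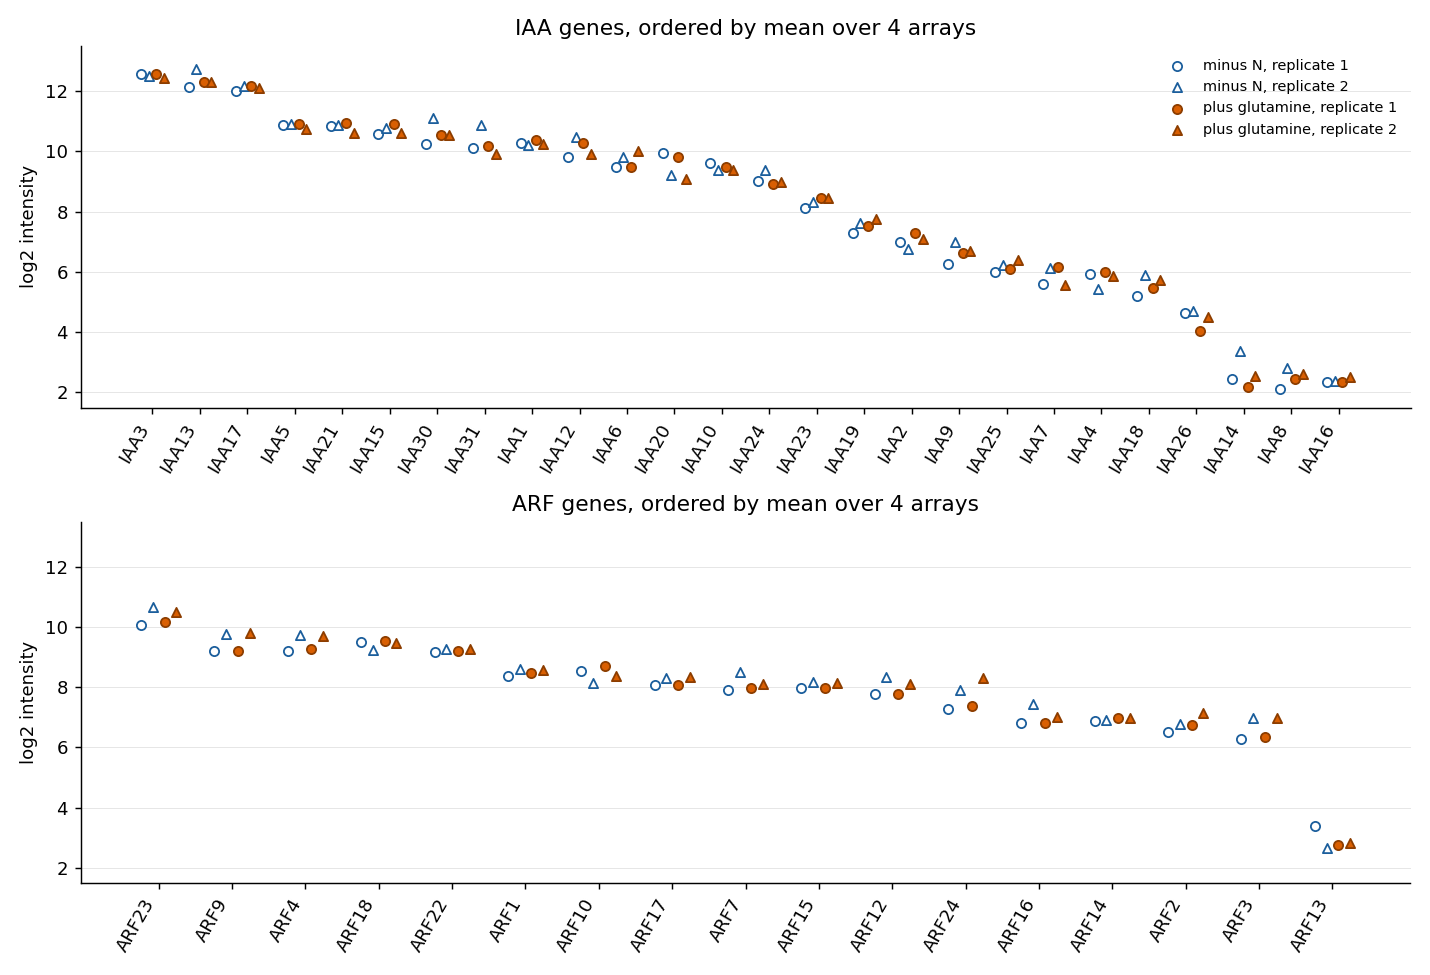
Log2 intensity of each IAA gene (upper panel) and each ARF gene (lower panel) in the 4 arrays, ordered by the mean over the arrays; open blue symbols are minus N, filled orange symbols plus glutamine, circles replicate 1 and triangles replicate 2. Open and filled symbols overlap for 22 of 26 IAA and 16 of 17 ARF genes.

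Set side by side, the families had median log2 differences of 0.02 for IAA, 0.02 for ARF, 0.11 for GH3 and -0.01 for PIN, and the lone SAUR gene had -0.15. Genes without overlap in either direction made up 4 of 26, 1 of 17, 1 of 9, 1 of 4 and 0 of 1 (15.4%, 5.88%, 11.1%, 25.0% and 0%), against 19.1% of all genes. The estimates for the leading members of GH3 and PIN lay above those of the rest of their families. The other 8 GH3 genes ran from -0.32 to 0.19 and the other 3 PIN genes from -0.26 to 0.05. The 95% intervals do not separate the leading members from their families. That of PIN5 (0.23 to 1.81) overlaps those of PIN2 (-1.01 to 1.11), PIN6 (-1.24 to 0.72) and PIN4 (-0.62 to 0.49). Of the 57 genes, 19 had a positive difference within both numbers, 8 a negative one within both, and 30 opposite signs or no difference in one of them. Members of a family are not replicates of a treatment, and no test was made over them.

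**Figure D3:**
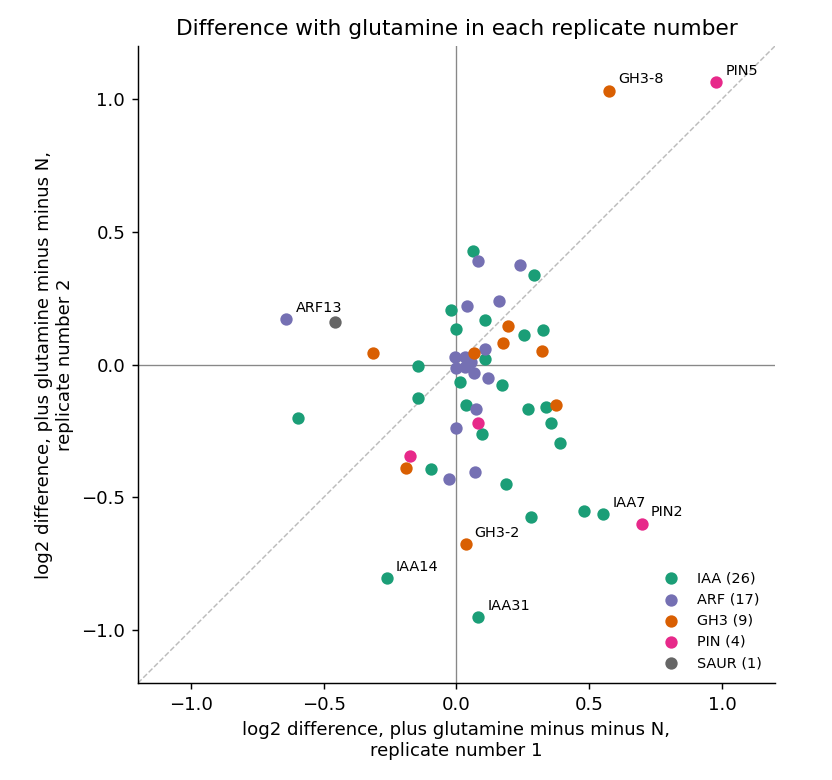
Log2 difference, plus glutamine minus minus N, of each of the 57 genes within replicate number 1 (horizontal) and within number 2 (vertical), coloured by family; the dashed line marks equal differences. PIN5 (0.98 and 1.06) and GH3-8 (0.57 and 1.03) lie apart at the upper right, and PIN2 (0.70 and -0.60) and IAA7 (0.55 and -0.56) at the lower right.

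The replicate number separated the arrays more than glutamine did, in these genes as over the array. For actin, a control for RNA integrity and labelling, the 3′ probe set divided by the 5′ one gave 6.73 and 6.17 for the arrays numbered 1 and 4.98 and 4.60 for those numbered 2. Of the 57 genes, 45 differed more between numbers than between groups (78.9%, against 73.5% of all genes). Both arrays numbered 2 lay above both numbered 1 for 28 of the members and below for 8, or 49.1% and 14.0%, against 50.4% and 15.4% of all genes. By family these were 8 and 5 of 26 IAA genes, 13 and 2 of 17 ARF genes, 5 and 1 of 9 GH3 genes and 1 and 0 of 4 PIN genes. The median difference between numbers was 0.54 for PIN, 0.34 for ARF, 0.24 for GH3 and 0.14 for IAA, against 0.20 for all genes. IAA20 and ARF24, chosen for this, mark the extremes, with IAA20 lower in the arrays numbered 2 by -0.73 and ARF24 higher by 0.78. The labels do not say what the number stands for beyond a biological repeat, and the part of RNA integrity in these values was not tested.

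**Figure D4:**
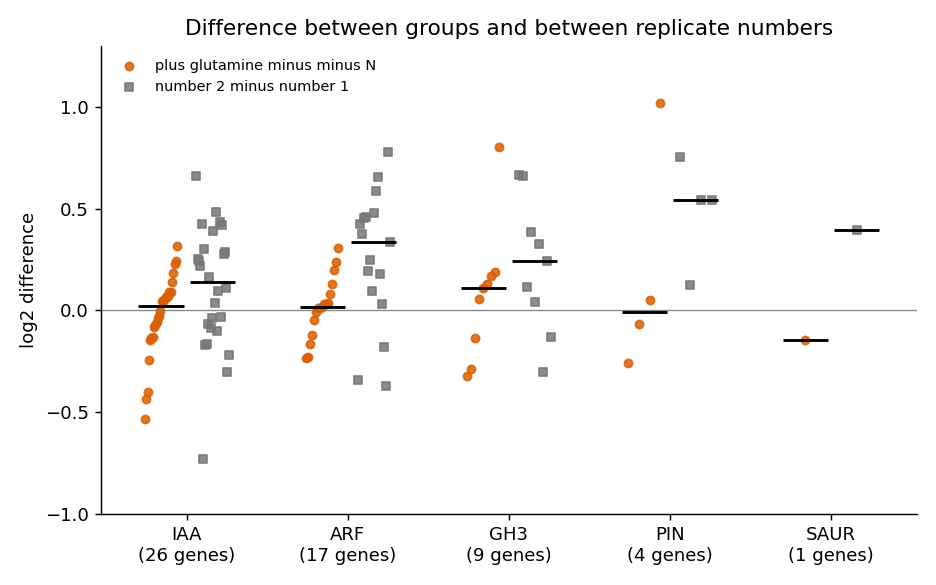
Log2 differences of each gene between the groups (orange circles, plus glutamine minus minus N) and between the replicate numbers (grey squares, number 2 minus number 1), by family, with black lines at the medians. The ARF circles lie between -0.23 and 0.31, while the ARF squares have a median of 0.34.

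Minus N replicate 1 was the lowest of the 4 arrays for 29 of the 57 genes (50.9%, against 37.0% of all genes), and minus N replicate 2 was the highest for 23 (40.4%, against 41.5%). The minus N repeats thus often enclosed both plus glutamine values, as in PIN2, IAA13 and IAA30. In PIN5 and GH3-8 the minus N repeats lay 0.50 and 0.36 log2 apart, less than the distance between the group means. The same held for other members, among them IAA2, IAA26 and GH3-6, so it is not particular to PIN5 and GH3-8.

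For 10 of the 57 genes the array carried more than 1 probe set of that gene alone, 70 probe sets in all for the 57. IAA23 had a second bright probe set, with a difference of 0.34 (SE 0.22) beside 0.23 for the one used, and neither overlapped between the groups. Another IAA23 probe set, a dim one, differed by 0.10 (SE 0.27) with overlap. The ID of the IAA23 probe set used, like those of IAA4 and GH3-11, marks it as prone to cross-hybridisation. ARF4 had 2 probe sets of similar brightness with differences of 0.02 and 0.01. For IAA31 the bright probe set differed by -0.43 and a dim one by 0.26, so they disagreed in sign. GH3-8 and each PIN gene had 1 probe set.

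Other genes of auxin metabolism and signalling were read from a list of names by role, of which 17 were measured. None was called by limma, with adjusted p-values of 1, and 0 had an unadjusted p under 0.05. Without overlap 4 were higher with glutamine (23.5%, against 10.1% of all genes) and 1 was lower (5.88%, against 9.03%). With the mean of all probe sets of a gene, 3 of the 17 were higher and 1 was lower, against 10.1% and 9.11% of all genes. In auxin synthesis YUCCA1, a flavin monooxygenase gene, had 3.57 and 3.74 without nitrogen and 3.93 and 4.15 with glutamine, a difference of 0.38 (SE 0.22) in a dim probe set whose ID marks it as prone to cross-hybridisation. Another probe set of this gene differed by -0.05. TAA1, named also FIB, encodes the aminotransferase of the preceding step and had 5.84 and 6.87, then 6.68 and 6.64, a difference of 0.30 (SE 0.38) with overlap.

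In perception, the corepressor genes TPR2 and TPR3, whose proteins are recruited by Aux/IAA proteins, differed by -0.06 (SE 0.45) and -0.10 (SE 0.39), and their arrays numbered 2 lay above those numbered 1 in both groups. BG1, a regulator of auxin transport in rice, differed by -0.08 (SE 0.23). The perception genes measured were TPR2, TPR3 and RUB1, and the only transport gene was BG1. No auxin receptor or influx carrier gene is among those measured. The list matched only 18 genes by name, so their absence does not show that the array lacks probe sets for them. Among the 8 genes of conjugate release and oxidation, ILL6 and ILL8, of the family that splits auxin from amino acids, differed by 0.20 (SE 0.21) and -0.27 (SE 0.27). DAO, the dioxygenase gene of auxin oxidation, had 8.73 and 8.61 without nitrogen and 8.86 and 8.87 with glutamine (difference 0.19, SE 0.21). WOX11, a homeobox factor of crown root growth, had 5.87 and 5.64, then 6.39 and 5.96, a difference of 0.42 (SE 0.25). LBD6 had 3.75 and 3.94, then 3.67 and 3.47, a difference of -0.28 (SE 0.22). The LBD6 probe set was dim, with an ID that, like that of YUCCA1, marks it as prone to cross-hybridisation. PID, the kinase gene whose product directs PIN proteins, had 7.98 and 7.68, then 8.11 and 7.63, with overlap. DAO and PID were named after their values were seen.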

How the data were processed

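For every probe set of the GeneChip Rice Genome Array and each of 4 root samples the authors deposited a linear intensity. GCOS and RMA are named by the submitters' processing notes, with no role given for either, and no source used here states how arrays were scaled to each other. Values ran from 2.9 to 21202.3. Log2 was taken with a floor of 1, which applied to 0 values, with no further normalization. Precision is limited by having 2 arrays per group. Genes were named through the platform annotation and the RefSeq gene table of ASM3414082v1, which matched all 22436 probe sets with 1 gene. Another 95 had several genes and 34727 none. The treatment difference was fitted in R 4.3.3 with limma 3.58.1 (lmFit, eBayes, group as the single term, two-sided, Benjamini-Hochberg over 57258 probe sets, threshold 0.05). The fit was checked on simulated arrays with independent noise and no effect of replicate number. That check does not show its power in the real arrays. The members, the lists and the tests were chosen with earlier results of these data known. All GH3 and PIN genes were named. Among IAA, ARF and SAUR genes the 3 brightest, up to 3 highest and 3 lowest without overlap and the 1 furthest apart between numbers were named, and among other auxin genes the 2 with the largest difference per role. In the lists, genes that share only a name were left out after the table was seen (LAX1 and LAX2, ASP1 and CRL4 among auxin genes). Promoter and protein sequences were not used here.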

Additional observations from a re-analysis of the deposited data

How the results depend on the processing

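No setting called any of the 57 auxin genes with limma, and over all probe sets the planned settings called 0. With the replicate block, limma gave 0 calls, a lowest adjusted p of 0.845 among the members and an unadjusted p under 0.05 for 3 of them (GH3-8, PIN5 and IAA14; 5.26%, against 6.1% of all genes in that fit), against 2 without it. The labels do not say that equal numbers pair the arrays. Deviations of same-numbered arrays from their group means correlated at r = 0.67 over probe sets and 0.41 over the members, a description over 2 numbers. A setting chosen after seeing the data, the replicate block with a trended and robust prior, called 24 probe sets and 0 members (lowest member adjusted p = 0.166).

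Of 36 genes named, 12 kept the sign of their difference in every setting run, among them GH3-8 (0.62 to 0.98 without any 1 array) and PIN5 (0.73 to 1.32). Where the groups do not overlap, as in GH3-8 and PIN5, leaving out 1 array cannot turn the sign, so this adds no support. Several of the 36 were named because their groups did not overlap. Others of the 12 came near 0, as GH3-11 (0.0067 to 0.33), ILL8 (-0.51 to -0.027) and IAA24 (-0.43 to -0.060), and IAA26 ran from -0.62 to -0.18. In ILL8 and IAA24 the value nearest 0 came without minus N replicate 2, and in GH3-11 and IAA26 without plus glutamine replicate 1. None of the 36 was called in any setting. Counts without overlap changed with scaling. Median centring gave 8 members higher (14%, against 10.5% of all genes), 4 of them IAA and 2 GH3 genes, and 3 lower (5.26%, against 10.4%). Quantile normalization gave 4 members lower (7.02%, against 11.2%), 1 of them ARF, and 7 higher (12.3%, against 10.1%), 2 of them GH3 genes. A minimum of 0.5 log2 left 2 members higher and 0 lower, with 0 IAA genes either way and 0 ARF genes higher.

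With 1 array left out, 3 arrays overlap less by construction, so these counts grew. Members higher numbered 11 to 31 (19.3% to 54.4%, against 19.6% to 42.7% of all genes) and lower 6 to 23 (10.5% to 40.4%, against 19.4% to 44.8%). Without minus N replicate 2 there were 31 higher and 6 lower, and without minus N replicate 1 there were 11 and 23. For IAA the ranges were 4 to 12 higher and 4 to 10 lower, for ARF 3 to 10 and 0 to 8, for GH3 2 to 6 and 0 to 2, and for PIN 1 to 3 and 0 to 3. The median difference then ranged from -0.10 to 0.16 over all members (-0.13 to 0.11 over all genes), from -0.07 to 0.15 for IAA, from -0.20 to 0.14 for ARF, from -0.058 to 0.25 for GH3 and from -0.38 to 0.40 for PIN.

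Leaving out 1 array turned the sign of the differences listed here, each smaller than its SE. The differences of ARF14, GH3-11 and ILL6 were also smaller than their SE and kept their sign. The ranges were -0.24 to 0.28 for ARF4, -0.26 to 0.32 for ARF9, -0.61 to 0.14 for ARF13 and -0.34 to 0.24 for ARF23. They were -0.83 to 0.19 for GH3-2, -0.67 to 0.090 for GH3-1, -0.28 to 0.011 for GH3-6, -0.0009 to 0.38 for GH3-4, -0.058 to 0.31 for GH3-5, -0.0415 to 0.27 for GH3-7 and -0.14 to 0.25 for GH3-9. Among IAA genes they were -0.090 to 0.037 for IAA3, -0.30 to 0.29 for IAA7, -0.44 to 0.18 for IAA13 and -0.033 to 0.13 for IAA17. They were -0.68 to 0.16 for PIN6, -0.55 to 0.64 for PIN2, -0.21 to 0.066 for PIN4 and -0.50 to 0.21 for SAUR39. Among the other auxin genes they were -0.22 to 0.81 for TAA1, -0.52 to 0.41 for TPR2, -0.51 to 0.31 for TPR3 and -0.24 to 0.0865 for BG1. ARF23 differed by 0.035 as the mean of its probe sets, and YUCCA1 by -0.050 without the probe sets prone to cross-hybridisation. The cause of these changes was not tested.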
